A study of Bubalus bubalis with 12 samples.

Results

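DIABLO, BCL2L11 and MCL1 are 3 regulators of apoptosis, and their H3K4me2 and H3K27me3 signals in buffalo spermatozoa are described here. The members were found by gene name among the non-control probes of the array and comprised 88 of 177440 probes and 3 of the 6805 genes that had at least 2 usable probes (9328 gene symbols were on the array). The members had been selected on their measured differences between high-fertile and subfertile bulls, so those differences are given as a description, with no test.

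The study compared spermatozoa from cryopreserved semen of 3 high-fertile bulls (HF2, HF3 and HF5) and 3 subfertile bulls (SF1, SF4 and SF5) of the water buffalo, Bubalus bubalis. Nothing in the labels states the breed, the ages or the conception records behind the fertility classes. In all groups the sperm chromatin had been cross-linked, cut with micrococcal nuclease and precipitated with an antibody to histone H3 dimethylated at lysine 4 (H3K4me2) or trimethylated at lysine 27 (H3K27me3). Each bull gave 1 array per mark, 12 arrays in all, on which the precipitated (ChIP) DNA carried Cy5 and the input DNA of the same bull Cy3. Each value below is log2 of the ChIP signal divided by the input signal, with the median probe of its array set to 0, so that it places a gene within its array and is no absolute amount. A gene's value is the mean of its probes.

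Mitochondrial apoptosis is decided by proteins of the BCL2 family, in which inhibitors hold back the pore-forming members and BH3-only proteins release that hold. Once the outer mitochondrial membrane is breached, cytochrome c and DIABLO escape to the cytosol and caspases become active. In the testis this pathway removes surplus and damaged germ cells. H3K4me2 is known from promoters of active or poised genes and H3K27me3 from genes silenced by Polycomb complexes. Spermatozoa replace most histones with protamines and are transcriptionally silent, so the marks are read from the nucleosomes that remain.

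The probes are 60-base oligonucleotides made to the cattle genome, and all coordinates follow the build named in the file headers, HGSC Btau_3.1. The DIABLO probes covered 71 bases of a single CpG island stretch, chr17:55836860-55836930. All 3 are shown because they are nearly the same sequence, started 6 and 5 bases apart and did not give the same value in every bull, and CG pairs are in capitals.
DIABLO probe 1: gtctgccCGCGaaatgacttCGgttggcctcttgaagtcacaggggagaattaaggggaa
DIABLO probe 2: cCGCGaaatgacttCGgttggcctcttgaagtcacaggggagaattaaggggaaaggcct
DIABLO probe 3: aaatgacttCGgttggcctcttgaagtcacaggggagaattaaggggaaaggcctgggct

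BCL2L11 had 76 probes, 70 classed as CpG island and 6 as promoter by the array, which formed 15 stretches of overlapping probes (called sites below, numbered by position) within chr11:1257367-1304194. Sites 1 and 2 lay 41740 bases away from the others, and sites 3 to 15 fell within 4878 bases of 1 CpG island. The first probe of site 13, where the H3K4me2 difference between the fertility groups was most negative, and of site 7, where H3K4me2 exceeded H3K27me3 the most, are given with CG pairs in capitals.
BCL2L11 site 13: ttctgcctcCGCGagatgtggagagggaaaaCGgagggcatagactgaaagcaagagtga
BCL2L11 site 7: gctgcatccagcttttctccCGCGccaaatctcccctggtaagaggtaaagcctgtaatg

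MCL1 had 9 probes in 4 sites within chr3:21662672-21666546, 1 classed as promoter and 8 as CpG island. The promoter probe, site 1, lay 3556 bases from the next. It is shown with the first probe of sites 3 and 4, which are separated by 8 bases and between them held the non-overlapping values of this gene.
MCL1 site 1: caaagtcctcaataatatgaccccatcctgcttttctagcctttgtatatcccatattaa
MCL1 site 3: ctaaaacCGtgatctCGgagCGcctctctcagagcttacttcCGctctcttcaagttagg
MCL1 site 4: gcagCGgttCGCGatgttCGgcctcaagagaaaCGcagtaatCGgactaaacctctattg

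The MCL1 promoter probe has no CG pair and 36.7% G and C, while the first probe of site 4 has 6 CG pairs. Of all 177440 probes, 93.5% held at least 1 CG (searched as the letters CG, which read the same on both strands) and 3.49% held 6 or more. The median over all kept probes was 51.7% G and C, which was also the median of the BCL2L11 and of the MCL1 probes, against 53.3% for DIABLO. The array annotation does not place these probes in exons or introns, and no genome of this build was used here. In the buffalo RefSeq gene table (assembly NDDB_SH_1), all 3 symbols matched, with DIABLO between B3GNT4 and VPS33A, BCL2L11 next to ACOXL, and MCL1 between ENSA and ADAMTSL4.

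The arrays differed in brightness. The median input signal per array ranged from 321 to 479 and the median ChIP signal from 356 to 1360 scanner units. The H3K4me2 arrays of HF5 (588) and SF5 (356) had the lowest ChIP medians of that mark, and in those arrays probes rich in G and C exceeded poor ones by 0.90 and 1.02 log2 units, against -0.24 to 0.12 in the other 4 H3K4me2 arrays. On the H3K27me3 arrays this gap was 0.65 in HF5 and at most 0.22 in the others. One bull of each group is affected, and values without both are given for several results below. The 2 arrays of a bull shared their input profile (correlation across genes at least 0.937, against at most 0.189 between bulls), so both marks of a bull rest on the same input. HF5 and SF1 shared slide 4. The other 4 bulls had a slide each, and there the slide and the animal cannot be told apart. Histone marks do not show whether a marker gene is expressed, so the labelled cell type could not be checked with them; bull medians over the measured leukocyte (3), epithelial (6), somatic testis (4) and sperm and germ cell (5) genes overlapped between the fertility groups for both marks. All 5 sperm and germ cell genes had lower mean H3K4me2 in the high-fertile bulls, the same direction as DIABLO and BCL2L11 below (bull medians -0.36 to 0.26 in HF and -0.05 to 1.41 in SF), and their part in those results was not tested.

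BCL2L11 encodes BIM, a BH3-only protein that triggers mitochondrial apoptosis by binding the BCL2-type inhibitors. Its H3K4me2 value was -0.39 in HF2, 0.080 in HF3 and -0.04 in HF5, and 0.77 in SF1, 0.084 in SF4 and 0.77 in SF5. The high-fertile bulls were all lower than the subfertile bulls, but HF3 and SF4 were nearly equal. The group means were -0.12 ± 0.24 and 0.54 ± 0.39 (SD, n = 3 bulls each), a difference of -0.66. Without HF5 and SF5 it was -0.58. Over all genes, 3.10% had H3K4me2 values without overlap and lower in the high-fertile bulls.

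For H3K27me3 the BCL2L11 values were -0.30, 0.18 and 0.12 in HF2, HF3 and HF5, and 0.60, -0.18 and 0.13 in SF1, SF4 and SF5. The groups overlapped, with means of 0.00 ± 0.26 and 0.19 ± 0.39. The difference of -0.19 turned to 0.02 without SF1 and was -0.27 without HF5 and SF5. None of the 3 genes lacked overlap for H3K27me3, against 4.01% of all genes with lower and 4.56% with higher high-fertile values. Within slide 4, HF5 minus SF1 was -0.81 for H3K4me2 and -0.48 for H3K27me3.

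**Figure D1:**
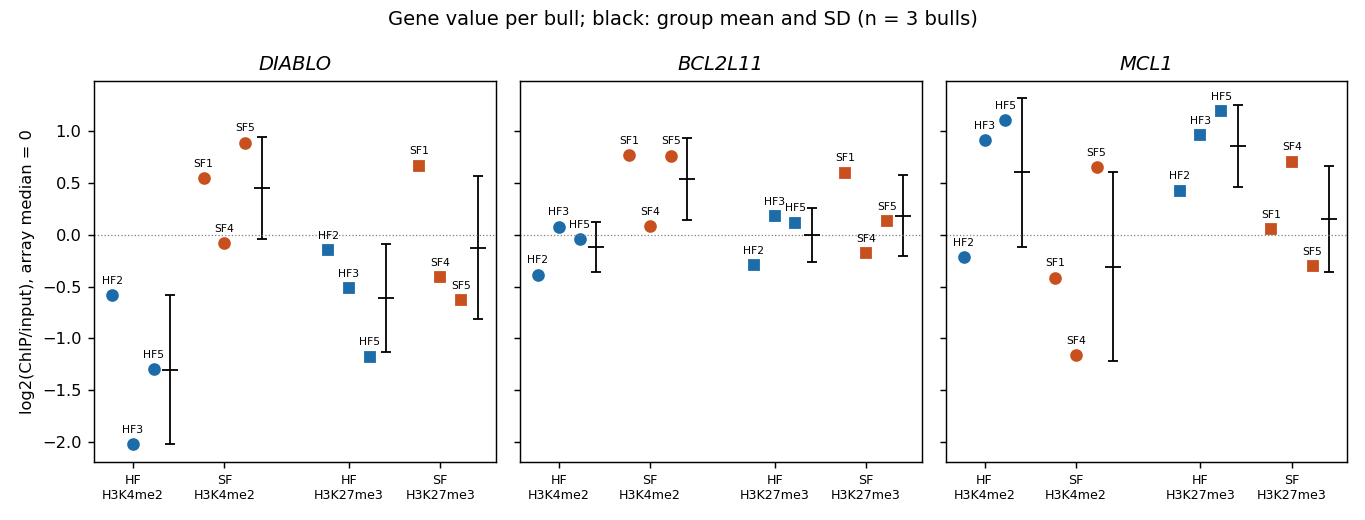
Values of DIABLO, BCL2L11 and MCL1 in each bull, as log2 of ChIP over input with the array median at 0 (vertical axis), by fertility group and mark (horizontal axis; HF high-fertile in blue, SF subfertile in orange; circles H3K4me2, squares H3K27me3). Black bars are the group mean and SD of 3 bulls; the H3K4me2 groups of DIABLO (-1.30 against 0.45) and, narrowly, of BCL2L11 (-0.12 against 0.54) do not overlap, while all other pairs of groups do.

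The many probes of BCL2L11 allowed its value to be followed along the island. The mean H3K4me2 difference was lower in the high-fertile bulls at 11 of 15 sites and higher at 4, and at 59 of 76 probes. Groups did not overlap at 3 sites (9, 10 and 13), all with lower high-fertile values. In that direction, 3.36% of the 23386 sites whose probes carry a gene symbol, called all sites below, lacked overlap. At the level of single probes, 17 of 76 did not overlap with lower and 3 with higher high-fertile values, against 3.41% and 3.76% of all probes with values on every array, but overlapping probes are not separate measurements.

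Site 13, 5 probes over 83 bases, gave H3K4me2 values of -1.50, -0.37 and 0.05 in HF2, HF3 and HF5, and 0.91, 1.19 and 3.07 in SF1, SF4 and SF5. The means were -0.61 ± 0.80 and 1.72 ± 1.18, a difference of -2.33. All subfertile bulls were above all high-fertile bulls here, and SF5 was far above the other subfertile bulls. At site 9 the subfertile values were 1.06, 0.22 and 3.97, against -0.48 to 0.05 in the high-fertile bulls, a difference of -1.91. Site 10, the stretch with most probes (17 over 159 bases), differed by -0.92, with values of -0.96, -0.33 and -0.12 against 1.14, 0.14 and 0.09.

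A single bull set the height of several of these sites. The H3K4me2 array of SF5, the dimmest ChIP array, held the highest value at 7 of the 15 sites and exceeded 2 at 5 of them (8, 9, 13, 14 and 15). Without SF5, the difference went from -1.15 to -0.27 at site 8, from -1.91 to -0.80 at site 9, from -1.03 to -0.24 at site 14 and from -1.02 to -0.25 at site 15. It stayed at -1.66 at site 13 and was -1.10 at site 10. Without SF5 the high-fertile mean was lower at 11 of 15 sites, the same number as with it, although site 2 went from -0.29 to 0.20 and site 3 from 0.09 to -0.03. Without HF5 and SF5 together it was lower at 13 of 15. The part of brightness and base composition in the SF5 values was not tested.

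The H3K27me3 array of SF5 did not show those heights. Its values at sites 8, 9, 13, 14 and 15 were -0.80, 0.08, -0.09, 0.17 and -0.04. For this mark the high-fertile mean was lower at 10 of 15 sites and higher at 5, and no site had groups without overlap, against 7.92% of all sites in either direction. The largest site differences for H3K27me3 were -1.32 at site 6 and 1.14 at site 7.

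**Figure D2:**
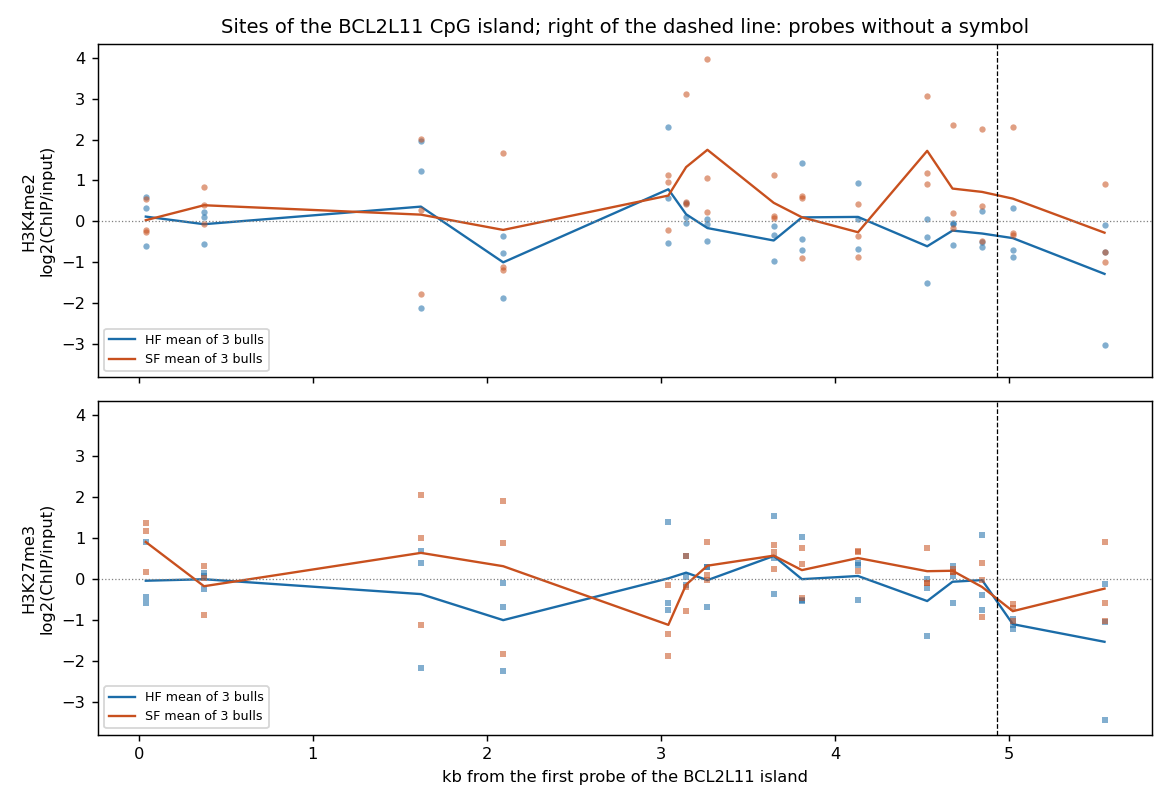
H3K4me2 (upper panel) and H3K27me3 (lower panel) at the sites of the BCL2L11 CpG island, as log2 of ChIP over input (vertical axis) against the distance in kb from the first island probe (horizontal axis); points are single bulls, lines join the means of 3 high-fertile (blue) and 3 subfertile (orange) bulls. The orange H3K4me2 line lies above the blue one at sites 4, 6, 8 to 10 and 13 to 15 and right of the dashed line. At site 11 the lines nearly meet, and at sites 3, 5, 7 and 12 the blue line is higher. A subfertile bull reaches 3.97, and the H3K27me3 lines cross repeatedly. Right of the dashed line are 24 probes without a gene symbol.

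Site 7 stood apart for the relation of the marks. Its 8 probes averaged 0.71 for H3K4me2 and -0.56 for H3K27me3 over the 6 bulls, a difference of 1.27. The bulls disagreed on its level, with H3K4me2 at 0.58, 2.30 and -0.52 in HF2, HF3 and HF5 and -0.20, 1.14 and 0.95 in SF1, SF4 and SF5. H3K27me3 there was -0.58, 1.39 and -0.77, and -0.16, -1.34 and -1.88, in the same order. Over all 15 sites the means of the 6 bulls ranged from -0.60 to 0.79 for H3K4me2 and from -0.56 to 0.56 for H3K27me3, and H3K4me2 was the higher mark at 9 of 15 sites.

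The same CpG island, chr11:1299140-1305038, continued past the last BCL2L11 probe. After a gap of 105 bases it held 24 further probes to which the array gives no symbol. All 24 had lower means in the high-fertile bulls for both marks. Their mean was -1.10 ± 1.25 against -0.10 ± 0.75 for H3K4me2 and -1.45 ± 1.35 against -0.36 ± 0.83 for H3K27me3, and the groups overlapped for both marks. HF3 lay lowest, at -3.02 for H3K4me2 and -3.44 for H3K27me3 over the 19 probes of the larger stretch, against -0.09 and -0.12 in HF2.

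The probes of BCL2L11 also differed widely within an array. Their highest and lowest values were 2.83 to 7.66 log2 units apart, depending on the array, so the gene mean is a mean over unlike sites. The 6 promoter-class probes averaged -0.26 in the high-fertile and 0.54 in the subfertile bulls for H3K4me2, and the 70 CpG island probes -0.10 and 0.54. Counting each site once gave a gene difference of -0.66 for H3K4me2 and -0.24 for H3K27me3.

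MCL1 encodes a short-lived inhibitor of the BCL2 family that binds BIM and the pore-forming proteins and keeps cells alive. Its H3K4me2 value was -0.22 in HF2, 0.92 in HF3 and 1.11 in HF5, and -0.41 in SF1, -1.16 in SF4 and 0.65 in SF5. HF3 and HF5 exceeded all subfertile bulls, while HF2 lay among them. The means were 0.60 ± 0.72 and -0.31 ± 0.91, a difference of 0.91 in the opposite direction to BCL2L11 and DIABLO, and 3.48% of all genes had higher high-fertile values without overlap. Without HF5 and SF5 it was 1.14, and it ranged from 0.48 to 1.39 as single bulls were left out.

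H3K27me3 at MCL1 was 0.43, 0.96 and 1.20 in HF2, HF3 and HF5, and 0.05, 0.71 and -0.30 in SF1, SF4 and SF5. Here too the means were higher in the high-fertile bulls, 0.86 ± 0.40 against 0.15 ± 0.51, and only SF4 reached into the high-fertile range. The difference of 0.71 became 1.22 when the median of the probes was used and 0.34 when each site counted once, and it was 0.31 without HF5 and SF5. Within slide 4, HF5 exceeded SF1 by 1.52 for H3K4me2 and by 1.15 for H3K27me3.

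The sites of MCL1 differed from each other. The high-fertile mean was higher at all 4 sites and all 9 probes for H3K4me2, by 0.01 to 2.44 per probe, and at 3 of 4 sites and 7 of 9 probes for H3K27me3. Site 4, 2 probes over 64 bases, had H3K4me2 values of -0.10, 2.04 and 3.66 in HF2, HF3 and HF5 against -0.17, -0.99 and -0.45 in SF1, SF4 and SF5. These groups did not overlap, though HF2 and SF1 were close, and the means differed by 2.41. It was the only MCL1 site of 4 without overlap for H3K4me2, against 3.74% of all sites with higher high-fertile values.

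For H3K27me3 the site without overlap was the adjoining site 3, with 5 probes over 89 bases. It gave 0.45, 0.87 and 1.87 in HF2, HF3 and HF5, and -0.10, 0.09 and -0.88 in SF1, SF4 and SF5, a difference of 1.36 against 3.90% of all sites without overlap in that direction. All 5 of its overlapping probes shared the pattern, and none of the other 4 MCL1 probes did (4.19% of all probes had it). Without HF5 and SF5 the difference was 0.67, and that of site 4 for H3K4me2 was 1.56. At site 4 the H3K27me3 difference was -0.42, opposite to that of H3K4me2, with values from -0.01 to 2.05 that overlapped. Without HF5 and SF5 it was 0.17, no longer opposite.

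The MCL1 promoter probe did not separate the groups. Its H3K4me2 value was 0.35, 1.02 and 3.41 in HF2, HF3 and HF5, and 0.99, 0.45 and 3.30 in SF1, SF4 and SF5. HF5 and SF5 stood far above the others, and the means were 1.59 and 1.58. Those bulls had the lowest H3K27me3 values at this probe, -0.22 and -1.20, against 0.85 to 1.15 in the other 4. They are the bulls of the 2 dimmest H3K4me2 arrays; the part of brightness in the values was not tested.

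DIABLO, also known as SMAC, leaves the mitochondrion together with cytochrome c and lifts the block that inhibitor of apoptosis proteins place on caspases. Its H3K4me2 value was -0.58 in HF2, -2.03 in HF3 and -1.30 in HF5, and 0.55 in SF1, -0.08 in SF4 and 0.89 in SF5. All high-fertile bulls lay below the array median. They also lay below all subfertile bulls, a pattern found in 3.10% of all genes. The means were -1.30 ± 0.72 and 0.45 ± 0.49, a difference of -1.76. In size it exceeded that of 99.0% of the 6805 genes, but the gene was selected on such differences, so the rank is no evidence. The difference was -1.54 without HF5 and SF5, -1.85 within slide 4, and -2.12 to -1.39 as single bulls were left out.

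H3K27me3 at DIABLO did not separate the groups. The values were -0.15, -0.51 and -1.18 in HF2, HF3 and HF5, and 0.67, -0.41 and -0.63 in SF1, SF4 and SF5. HF2 lay above SF4 and SF5, and the means of -0.61 ± 0.52 and -0.12 ± 0.69 differed by -0.49. The difference was -0.09 without SF1 and -0.21 without HF5. Within slide 4 that difference was -1.85, as for H3K4me2.

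**Figure D3:**
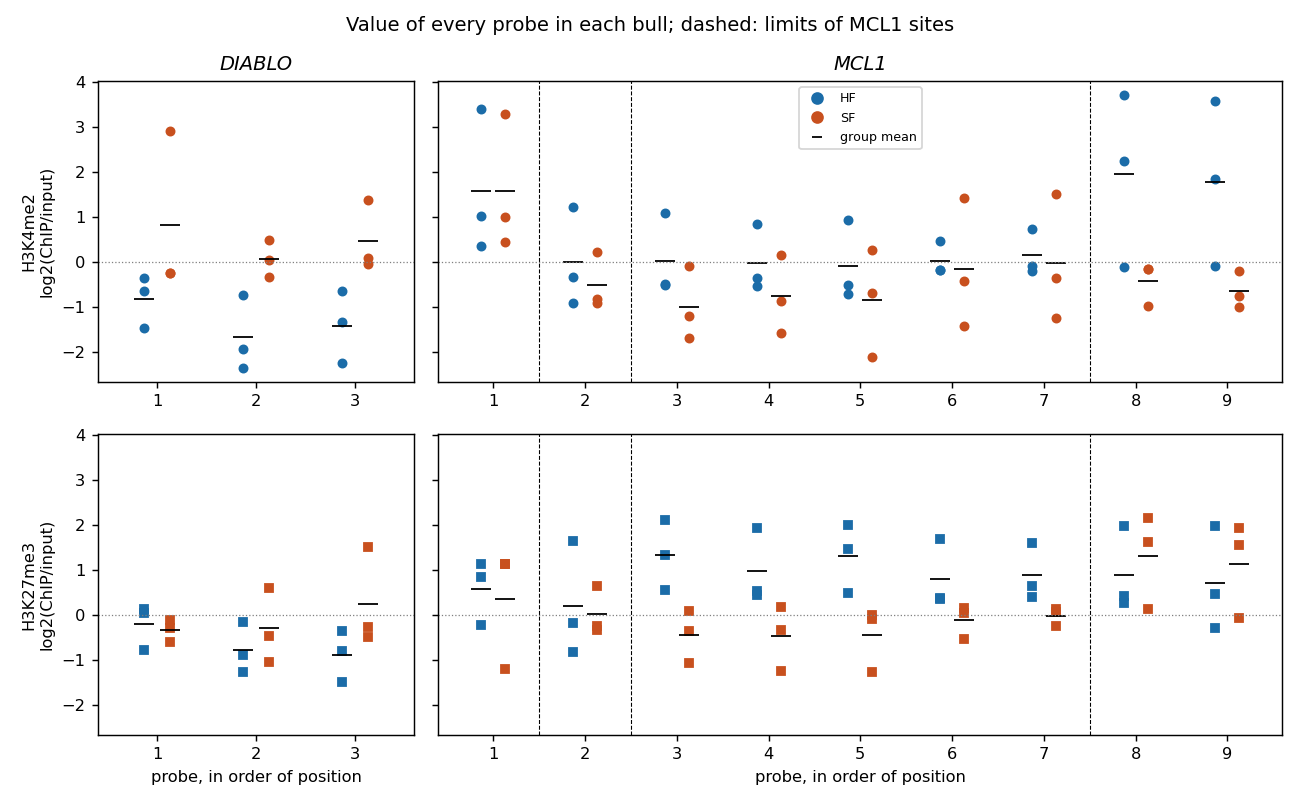
Every probe of DIABLO (left) and MCL1 (right) in order of position (horizontal axis), with the log2 of ChIP over input (vertical axis) in each high-fertile (blue) and subfertile (orange) bull; H3K4me2 above, H3K27me3 below, dashes are group means of 3 bulls and dashed lines part the MCL1 sites. All 3 DIABLO probes separate the groups for H3K4me2, and the MCL1 groups separate at site 4 (probes 8 and 9) for H3K4me2 and at site 3 (probes 3 to 7) for H3K27me3. Of all probes with values on every array, 3.41% separate with lower and 3.76% with higher high-fertile H3K4me2. For higher high-fertile H3K27me3 the share is 4.19%.

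All 3 DIABLO probes had lower H3K4me2 in the high-fertile bulls without overlap, against 3.41% of all probes with values on every array. Their differences were -1.64, -1.74 and -1.89. As they cover nearly the same 71 bases, they amount to 1 measurement of the locus. They differed most in SF5, where the first probe gave 2.92 and the others -0.33 and 0.09. In SF1 the third probe was highest, at 1.37 against -0.23 and 0.50. Between probes shifted by a few bases the values were 1.60 log2 units apart in SF1 and 3.25 in SF5, while the 3 probes of SF4 lay within 0.28 of each other.

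The ratio has a ChIP and an input part, and in DIABLO the input part was the larger. Input signal relative to the array median was 0.75, 0.87 and -0.71 on the H3K4me2 arrays of HF2, HF3 and HF5, and -0.80, 0.69 and -1.93 on those of SF1, SF4 and SF5. HF2, HF3 and SF4 were well above the median and the others below it, and the mean was 0.98 higher in the high-fertile bulls. ChIP signal was 0.19, -1.01 and -1.998 in the high-fertile and -0.15, 0.61 and -0.97 in the subfertile bulls, a difference of -0.77. Neither channel separated the groups by itself. With the mean input of the 6 bulls in place of each bull's own, the H3K4me2 difference was -0.73.

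For H3K27me3 at DIABLO the channels went the same way. The ChIP signal alone was 0.42 higher and the input 0.90 higher in the high-fertile bulls. A higher input lowers the ratio, and the difference of the ratio was negative, at -0.49. With the mean input it was 0.46. The 2 input measurements of a bull, 1 per array, differed by at most 0.12 for DIABLO, 0.06 for BCL2L11 and 0.02 for MCL1, so the spread of the input between bulls was repeated on the second array.

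In BCL2L11 and MCL1 the ChIP part was larger than the input part for H3K4me2. High-fertile minus subfertile was -0.49 for the ChIP signal of BCL2L11 and 0.16 for its input. For H3K27me3 its ChIP difference was 0.02 and its input difference 0.19. MCL1 had ChIP differences of 0.52 and 0.35 for the marks and input differences of -0.40 and -0.38. Its input lay below the array median in every bull, from -1.70 in HF3 to -0.33 in SF1. Groups overlapped in each channel alone for all 3 genes and both marks.

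**Figure D4:**
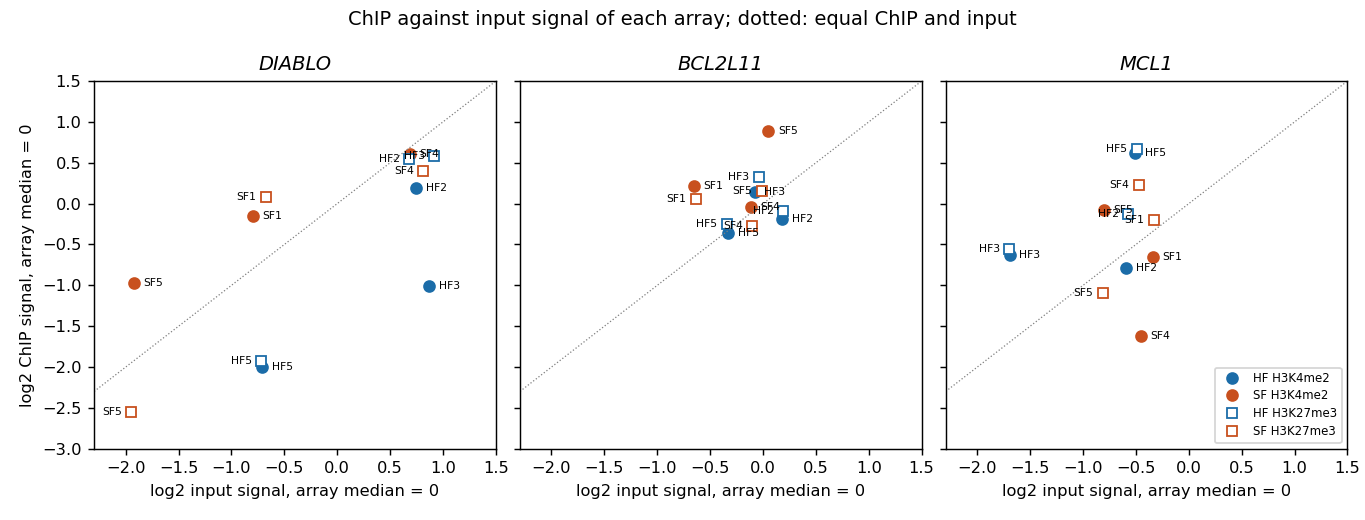
ChIP signal (vertical axis) against input signal (horizontal axis) of the 3 genes on each of 12 arrays, in log2 units with the array median at 0; filled circles H3K4me2, open squares H3K27me3, blue high-fertile, orange subfertile. Height above the dotted line is close to the log2 ratio; the input of DIABLO spreads from -1.95 to 0.92, that of BCL2L11 from -0.65 to 0.19, and both arrays of a bull lie at nearly the same input.

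The marks were also compared with each other over all 6 bulls, a contrast that does not use fertility. Fitted without a block for the bull, limma found no difference past an adjusted p of 0.05 in any of the 3 genes. In that fit, which does not use the pairing of the arrays, 0 of all 6805 genes passed (0%), with 41 (0.602%) at an unadjusted p under 0.05. H3K4me2 minus H3K27me3 was -0.06 for DIABLO (95% confidence interval -0.82 to 0.71), negative in 4 of 6 bulls. It was 0.12 for BCL2L11 (-0.44 to 0.67), positive in 3 of 6 bulls, and -0.36 for MCL1 (-1.17 to 0.45), negative in 5 of 6. The MCL1 value ranged from -0.71 without SF5 to -0.01 without SF4 as single bulls were left out, and was -0.07 with each site counted once. The limma adjusted p was 1.00 for each, and with the bull as a block it was 0.978, 0.940 and 0.934 for DIABLO, BCL2L11 and MCL1. The intervals with the block were -0.70 to 0.59 for DIABLO, -0.27 to 0.50 for BCL2L11 and -1.14 to 0.43 for MCL1. Without the block the intervals include differences of 0.6 or more in size for every member. With it they do so for DIABLO and MCL1 but not for BCL2L11. Without HF5 and SF5 together, H3K4me2 minus H3K27me3 was -0.43 for DIABLO, 0.06 for BCL2L11 and -0.76 for MCL1.

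Each mark was set against the array median in the same way. DIABLO lay below it for both, at -0.42 for H3K4me2 and -0.37 for H3K27me3, and BCL2L11 slightly above it, at 0.21 and 0.09. The DIABLO values moved nearer to 0 with within-array loess, to -0.15 and -0.02, and were -0.15 and -0.02 in the authors' deposited value table. For H3K27me3 DIABLO was at -0.10 without HF5 and SF5. MCL1 was at 0.15 for H3K4me2 and at 0.51 for H3K27me3 (0.02 to 1.00), above the median in 5 of 6 bulls and higher than 96.3% of genes. The limma p of MCL1 for H3K27me3 was 0.0441 before and 0.923 after adjustment over all genes, so it did not pass. No gene passed for either mark (0%), with 302 (4.44%) and 360 (5.29%) at an unadjusted p under 0.05.

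Within bulls, the contrast of the marks at BCL2L11 differed in sign between the fertility groups. It contains the H3K4me2 difference that was known when the gene was chosen, so it is a description and was not tested. H3K4me2 minus H3K27me3 was -0.09, -0.10 and -0.16 in HF2, HF3 and HF5 and 0.17, 0.26 and 0.63 in SF1, SF4 and SF5. All high-fertile bulls had the higher value for H3K27me3 and all subfertile bulls for H3K4me2. Of all 6805 genes, 104 (1.53%) had these signs in the 6 bulls, and 219 (3.22%) had the groups on opposite sides of 0 in either direction. DIABLO gave -0.43, -1.51 and -0.12, and -0.12, 0.33 and 1.52, in the same order. Its groups touched at HF5 and SF1. MCL1 gave -0.64, -0.04 and -0.09, and -0.47, -1.87 and 0.96, with the high-fertile bulls inside the subfertile range.

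The other apoptosis genes were taken from role lists of 47 genes, of which 26 were on the array and 18 had at least 2 usable probes. None of the 18 passed an adjusted p of 0.05 by limma between the fertility groups for either mark (0% of all genes passed, with 198, 2.91%, and 277, 4.07%, at an unadjusted p under 0.05). For H3K4me2, 10 had higher and 8 lower means in the high-fertile bulls, with a median difference of 0.22 against -0.02 over all genes. For H3K27me3, 9 were higher and 9 lower, with medians of -0.02 and 0.01.

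Among the inhibitors of the BCL2 family, all 4 measured besides MCL1 had higher mean H3K4me2 in the high-fertile bulls, with differences from 0.18 to 0.93. The largest rested on 2 probes, and its groups overlapped. BCL2, the founding inhibitor, averaged 0.15 ± 0.09 against -0.03 ± 0.04 over 125 probes, without overlap. BCL2L1, which encodes BCL-XL, averaged -0.01 ± 1.06 against -0.41 ± 0.37, well inside its spread. For H3K27me3, BCL2 differed by 0.36 and BCL2L1 by -0.55, and both overlapped. None of these differences passed the test, and the list was tallied with the MCL1 result known.

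The BH3-only genes measured besides BCL2L11 were BAD, BMF, HRK and BNIP3, of which 2 had higher and 2 lower H3K4me2 in the high-fertile bulls. BMF, named after its values were seen, was the farthest from BCL2L11: it averaged 0.71 ± 1.18 against -0.91 ± 0.55 for H3K4me2 and -0.22 ± 0.70 against -1.60 ± 0.54 for H3K27me3, both without overlap. BMF and BCL2 were the 2 of 18 genes without overlap for H3K4me2, where 6.58% of all genes lacked it, and BMF was the 1 of 18 for H3K27me3, where 8.57% did.

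Of the proteins that leave the mitochondrion with DIABLO, cytochrome c (CYCS) averaged 0.28 ± 1.39 against -0.19 ± 1.37 for H3K4me2. The protease HTRA2, which like DIABLO antagonises inhibitor of apoptosis proteins, averaged -0.16 ± 0.42 against -0.09 ± 0.19. The groups overlapped in both genes, and the differences were 0.46 and -0.07, beside -1.76 at DIABLO. For H3K27me3, CYCS differed by 1.03 and HTRA2 by 0.26, also with overlap, beside -0.49 at DIABLO. Downstream, the apoptosome scaffold APAF1 differed by 0.50 for H3K4me2 and -0.27 for H3K27me3. The death receptor FAS, from a separate list, differed by -0.03 for H3K4me2 and 0.08 for H3K27me3. All of these groups overlapped.

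**Figure D5:**
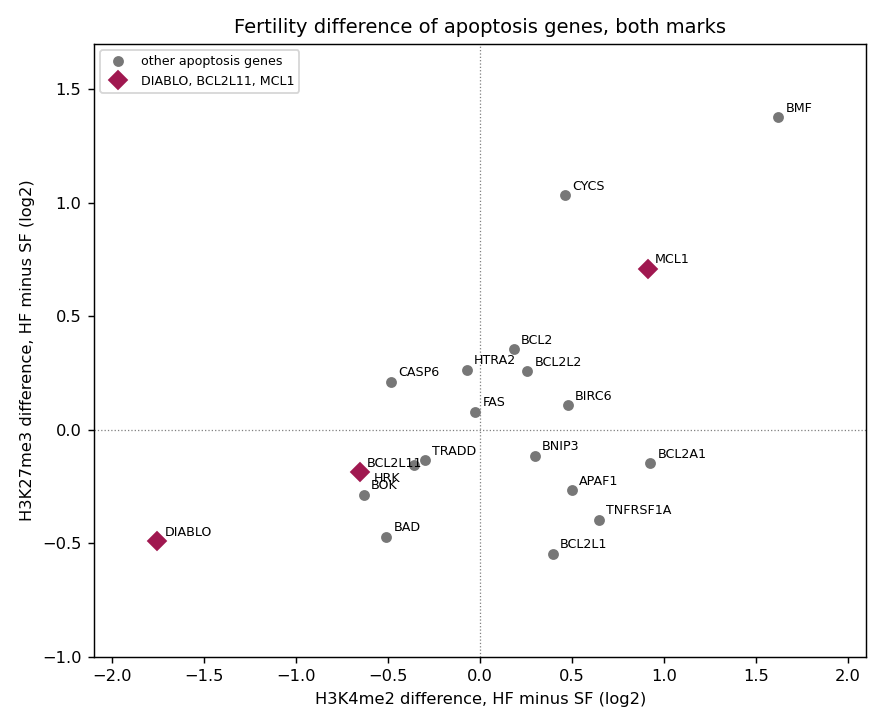
Difference between the mean of 3 high-fertile and of 3 subfertile bulls for H3K4me2 (horizontal axis) and H3K27me3 (vertical axis), in log2 units, for apoptosis genes with at least 2 usable probes; purple diamonds are DIABLO, BCL2L11 and MCL1, grey circles other genes of the lists. DIABLO (-1.76) lies farthest left, BMF (1.62 and 1.38) farthest to the upper right, and the dotted lines mark no difference.

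Pearson's r was taken across the 12 arrays, which come in pairs from 6 bulls with a shared input. Among 6695 genes with probes on a single chromosome and no symbol starting with LOC, those most like each member were named. For DIABLO they were CNPY4 (0.90), PPT1 (0.87) and AARS2 (0.86). For BCL2L11 they were DAGLB (0.94) and DGCR6 (0.87), and for MCL1 they were ADRA1A (0.88), MOB2 (0.87) and VANGL2 (0.85). None of them is a gene of the apoptosis lists. The members were less alike, with r of 0.60 between DIABLO and BCL2L11, -0.46 between DIABLO and MCL1 and -0.11 between BCL2L11 and MCL1.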

How the data were processed

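Precipitated and input DNA from spermatozoa of 6 bulls was hybridised to 12 two-colour Agilent arrays, with ChIP in Cy5 and input in Cy3 and no dye swap, per the labels. The authors extracted the intensity values in Agilent Feature Extraction 10.7, per the submitters' processing notes (10.7.3.1 per the file headers); the same deposited files hold flags of 0 and 1 for spots well above background, saturated or outlying. A deposited value table holds log2 ratios that, as read from the values, the authors had corrected for brightness; it served as an alternative.

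The log2 ratio of processed Cy5 over processed Cy3 was taken for 177440 probes (3440 control spots left out). Outlier spots were set missing, and saturated spots stayed. The 177372 probes whose input was well above background on 6 or more arrays were kept, and each array was centred on their median. All 88 probes of DIABLO, BCL2L11 and MCL1 were kept. Genes needed 2 kept probes. Differences were fitted over 6805 genes with lmFit and eBayes of limma 3.58.1 (R 4.3.3), with two-sided p-values adjusted by Benjamini-Hochberg and a threshold of 0.05. No adjusted p is given for the members between fertility groups. The half-width of the 95% confidence interval in the median gene, 1.20 and 1.10 log2 units for the H3K4me2 and H3K27me3 fertility differences, gives the precision of 3 bulls per group. In data simulated for the H3K4me2 comparison, with 6805 genes, 80.0% of genes shifted by 4 log2 units were called. That shift is larger than the fertility difference of any member gene, so the share does not describe differences of their size.

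Bull numbers pair the 2 arrays of an animal, which the shared slide and input profile bear out (deviations of the log2 ratio from the group mean correlated at 0.317 to 0.747 within bulls). The bull entered as a replicate block in an alternative fit of the mark comparison. Other alternatives changed the background correction, normalization, source, probe filter, probe summary, GC correction, input and bulls. The members, the lists of apoptosis and cell type genes and the rules for named genes were chosen with earlier results of these data known. Named apoptosis genes were BCL2, BCL2L1, HTRA2, CYCS, APAF1 and FAS by role, and the 3 genes of highest Pearson's r with each member; some genes that these rules name are not reported here.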

Additional observations from a re-analysis of the deposited data

Results flagged for a closer look

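At BCL2L11 the contrast of the marks had opposite signs in the fertility groups. H3K4me2 minus H3K27me3 averaged -0.12 ± 0.04 in the 3 high-fertile bulls and 0.35 ± 0.25 in the 3 subfertile bulls, a difference of -0.47, with every high-fertile bull below 0 and every subfertile bull above it. Of all 6805 genes, 1.53% had these signs, and 3.22% had the groups on opposite sides of 0 in either direction. The difference was not tested, because the gene had been chosen with the H3K4me2 difference known.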

How the results depend on the processing

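The number of genes past an adjusted p of 0.05 was 0 in every comparison under every alternative run, except that with the ChIP signal alone 3704 genes passed against the array median for H3K4me2 and 3778 for H3K27me3, a scale on which the probe's own brightness counts. With the bull as a replicate block, 0 genes passed in the comparison of the marks, also with a GC correction, and no other call changed. Of the fertility differences, those of DIABLO, BCL2L11 and MCL1 for H3K4me2 and of MCL1 for H3K27me3 kept their sign in all alternatives (DIABLO -2.12 to -0.73, BCL2L11 -0.88 to -0.45, MCL1 0.48 to 1.52 and 0.31 to 1.22). For H3K27me3, BCL2L11 turned to 0.02 with the ChIP signal alone or without SF1 and to 0.05 with the mean input, and DIABLO to 0.42 and 0.46. None of the following had passed a test. H3K4me2 minus H3K27me3 of BCL2L11 was -0.019 with the median of the probes, and that of DIABLO ranged from -0.29 to 0.15 as single bulls were left out (above 0 without HF3, SF1 or SF4). Against the array median, H3K4me2 of MCL1 was -0.13 with the median of the probes, -0.53 with the ChIP signal alone, -0.22 without HF5 and SF5, and -0.092 to 0.36 without single bulls. H3K27me3 of BCL2L11 and MCL1 was -0.017 and -0.18 with the ChIP signal alone, and BCL2L11 ranged from -0.0098 to 0.18 without single bulls. The causes were not tested. Counting each site once, and leaving out SF5 or HF5 and SF5 from the counts of sites, were chosen after seeing the data. Without HF5 and SF5, 34 rather than 20 BCL2L11 probes and 7 rather than 2 MCL1 probes had H3K4me2 groups without overlap, with 2 bulls in each group, a setting in which 31.9% of all probes lacked overlap.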
